A study of Homo sapiens with 8 samples.

Results

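Messenger RNA levels of 10 genes that store iron in ferritin, deliver ferritin to autophagy or build autophagosomes were followed in liver cancer cells that had become resistant to sorafenib. The genes were fixed by name (FTH1, FTL, NCOA4, SQSTM1, ULK1, ATG5, ATG7, MAP1LC3B, GABARAPL1 and GABARAPL2) and matched by Ensembl identifier, and all 10 were found among the 63241 identifiers measured. All 10 also passed the filter on low values, which asked for an FPKM no lower than 1 in 2 or more libraries and left 15173 genes for every test. FPKM divides the fragments of a gene by its length and by the library total, so levels of different genes can be compared within a library.

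HepG2 and Huh7 are human liver cancer lines kept in culture, which the study describes as hepatocellular carcinoma lines. The study set sensitive WT cells, labelled as control, against SR cells, labelled as treated with sorafenib, a multikinase inhibitor, and polyadenylated RNA was sequenced in 8 libraries, 2 for WT and 2 for SR in each line. SR cells of each line were raised by stepwise exposure to increasing sorafenib, the labels place all libraries in the same batch, and neither says whether the drug was present at harvest or whether replicates came from separate cultures, so the p-values measure the spread between these libraries, which may be technical. The genotype labels read WT and SR, and no engineered change is labelled. The RNA measured here shows neither the amount of ferritin protein nor its breakdown.

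Ferritin is a hollow shell of heavy (FTH1) and light (FTL) chains in which the cell stores iron. The heavy chain oxidizes ferrous iron, and the light chain helps the iron core to form. When iron is needed, the receptor NCOA4 binds the heavy chain and carries ferritin into an autophagosome, which fuses with a lysosome, and the released iron can feed lipid peroxidation and ferroptosis. Autophagosomes are started by the kinase ULK1. They grow as ATG7 and ATG5 take part in attaching LC3 and GABARAP proteins to the membrane, and SQSTM1 (p62) is a receptor that brings other cargo to the same proteins.

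Ferritin output is set largely after transcription, by iron regulatory proteins that bind a hairpin near the 5′ end of both ferritin mRNAs, the iron-responsive element. The 28 bases around this element in the GENCODE release 29 transcripts are shown because they are a control that FPKM cannot see. The loop CAGTG is in capitals, and letters run 5′ to 3′.
FTH1: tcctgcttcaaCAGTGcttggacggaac
FTL: tcttgcttcaaCAGTGtttggacggaac
The windows were bases 60 to 87 of the FTH1 transcript and 36 to 63 of the FTL transcript, and they were identical at 26 of 28 positions. Of 12 annotated FTH1 transcripts, 10 held the 13-base run tgcttcaacagtg that the windows share, and whether reads came from the others was not tested. A difference in the RNA level of either chain does not show how this translational control acted, which was not measured here.

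Libraries did not all follow their labels. In pairwise correlations of log2(FPKM + 1) over the genes tested, 5 libraries (HepG2 WT replicates 1 and 2, HepG2 SR replicate 1, and replicate 2 of both Huh7 groups) resembled one another, with r of at least 0.914. Huh7 WT replicate 1 and Huh7 SR replicate 1 formed a separate pair at 0.965, and HepG2 SR replicate 2 resembled neither set, with r of at most 0.846. Summed over 10 hepatocyte markers, FPKM lay between 5525 and 9350 in HepG2 and was 759, 2228, 1237 and 7744 in Huh7 WT replicates 1 and 2 and Huh7 SR replicates 1 and 2, with 0 markers at 0 in any library. Of 6 leukocyte markers, LYZ and CD68 reached an FPKM of 1 in each library, while PTPRC was at most 0.0258 FPKM, and fibroblast and endothelial lists summed to at most 9.03 and 4.52. The closest pair of all, HepG2 SR replicate 1 and Huh7 SR replicate 2 at 0.977, crossed the labelled lines. Whether each library holds the cell line and status on its label was not tested, and if any does not, each difference between lines or between SR and WT below changes its meaning. Groups are those of the labels, and values without the libraries that stand apart are given where a result rests on them.

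The ferritin chains were among the most abundant transcripts. FTL, on chromosome 19 of GRCh38 from 48965301 to 48966878 (plus strand), ranked between 6 and 21 of all genes in the 8 libraries, and FTH1, on chromosome 11 from 61959718 to 61967660 (minus strand), between 11 and 32. Together they made up between 1.02% and 1.53% of the summed FPKM of a library.

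FTH1 had 1545 and 1507 FPKM in the HepG2 WT libraries, with 1440 and 3251 FPKM in SR. In Huh7 it stood at 1388 and 1747 FPKM in WT and at 1327 and 1043 FPKM in SR. Thus 7 of the 8 libraries lay within a narrow band, HepG2 SR replicate 2 lay far above it, and both Huh7 SR libraries lay below both Huh7 WT libraries. SR against WT gave a log2 fold change of 0.50 in HepG2 (standard error 0.46, 95% interval -0.59 to 1.597) and -0.40 in Huh7 (standard error 0.46, -1.50 to 0.69). Without HepG2 SR replicate 2 the HepG2 value was -0.084.

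FTL, the light chain, had a fold change of the opposite sign in each line, and neither passed the test. It had 3393 and 3431 FPKM in the HepG2 WT libraries, with 4562 and 1531 FPKM in SR, so the SR libraries bracketed the WT libraries. In Huh7 it was 3480 and 3006 FPKM in WT and 5017 and 3295 FPKM in SR, and the groups overlapped. Its log2 fold change was -0.37 in HepG2 (standard error 0.56, 95% interval -1.70 to 0.97) and 0.33 in Huh7 (standard error 0.56, -1.01 to 1.67). With HepG2 SR replicate 2 removed, the HepG2 value was 0.42. Between the lines the SR effect differed by -0.91 for FTH1 and 0.70 for FTL, and neither was called, although FTH1 reached -1.50 and was called without HepG2 SR replicate 1 (unadjusted p = 0.0467, adjusted p = 0.788 from limma).

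The balance of the chains differed more between libraries than their sum. A ratio within a library does not depend on how the library was scaled. FTL exceeded FTH1 by 2.20 and 2.28 times in HepG2 WT and by 2.51 and 1.72 times in Huh7 WT. In SR it exceeded FTH1 by 3.17 times in HepG2 replicate 1 and by 3.78 and 3.16 times in Huh7, whereas in HepG2 SR replicate 2 the ratio was 0.471. Hence 3 of the 4 SR libraries lay above every WT library and the other lay below every one. The summed FPKM of both chains spanned only 4338 to 6344. These ratios are descriptions and were not tested.

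**Figure D1:**
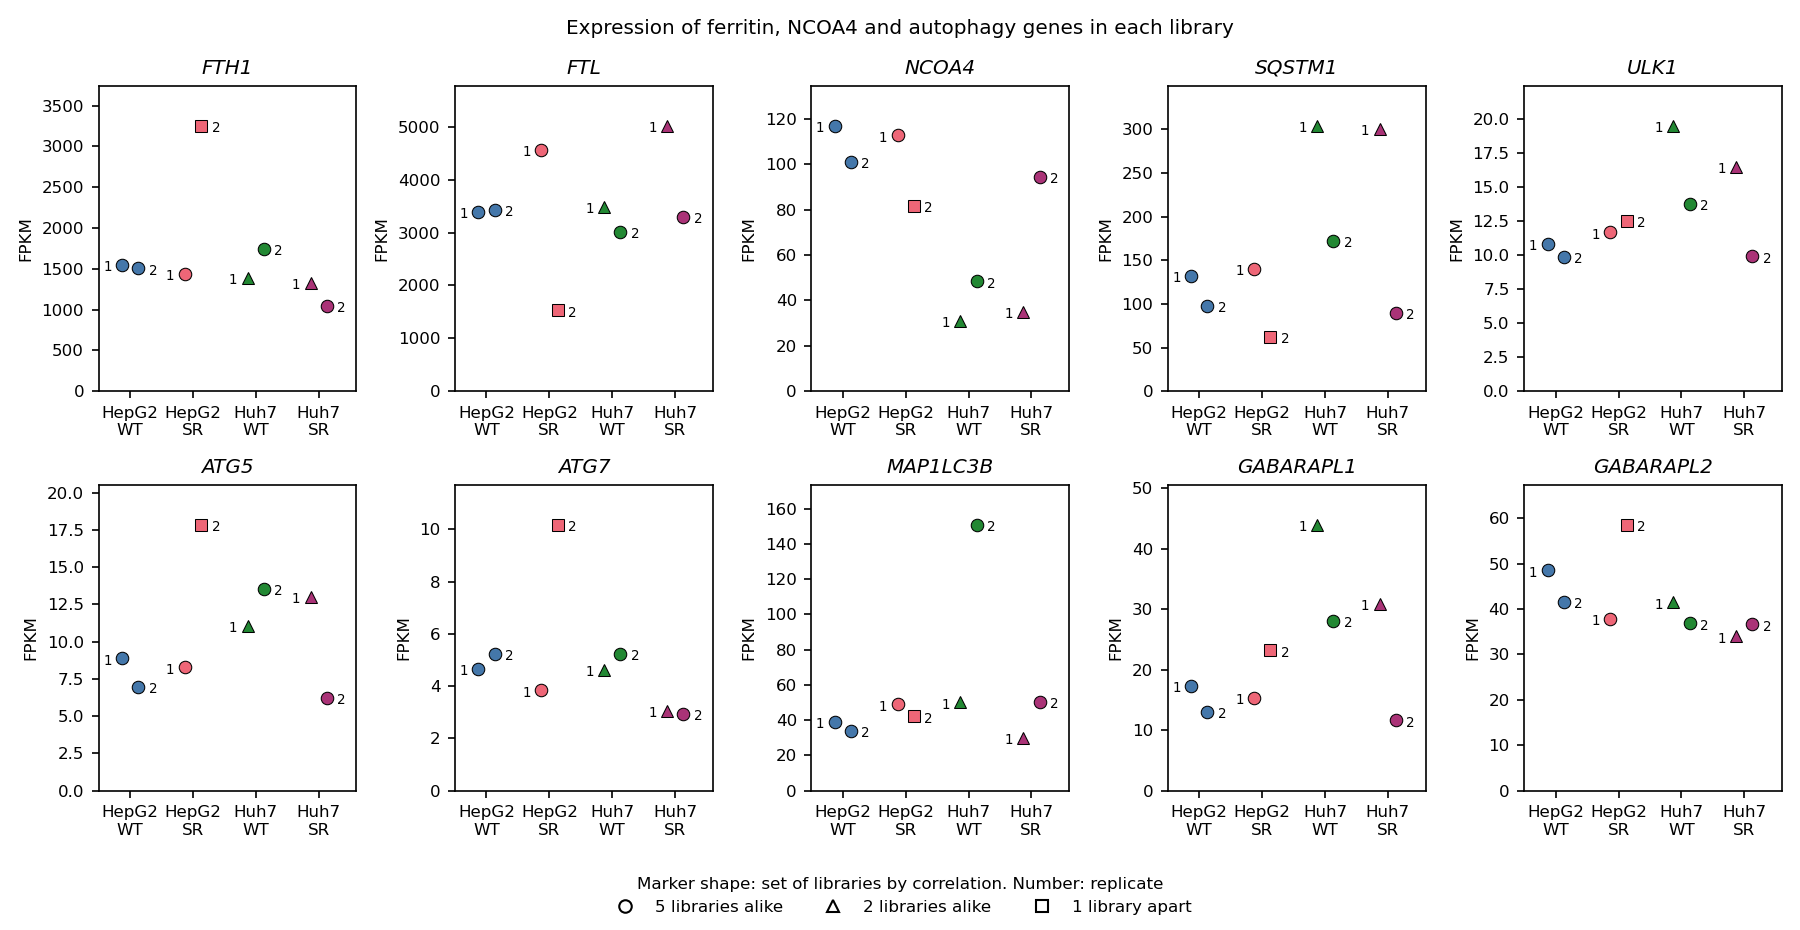
FPKM of each of the 10 genes (vertical axes, linear and from 0) in the 8 libraries, ordered by labelled group, with the replicate number beside each point and the marker shape giving the set of libraries that correlate with one another. HepG2 SR replicate 2 (square) is the highest library for FTH1, GABARAPL2, ATG5 and ATG7 and the lowest for FTL and SQSTM1.

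NCOA4, the ferritin receptor (chromosome 10, 46005088 to 46030714, minus strand), was the 1 gene of the 10 that differed between the labelled cell lines at the thresholds used, which asked for p under 0.05 before adjustment and a log2 fold change of 0.5 or more, or below -0.5. It had 117 and 101 FPKM in the HepG2 WT libraries, with 113 and 81.5 FPKM in SR. In Huh7 it stood at 30.9 and 48.4 FPKM in WT and at 35.0 and 94.3 FPKM in SR. All 4 HepG2 libraries were high, 3 Huh7 libraries were low and Huh7 SR replicate 2 lay among the HepG2 libraries, so the lines overlapped.

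The mean was 103 ± 15.8 FPKM in HepG2 and 52.1 ± 29.1 FPKM in Huh7 (SD, n = 4 each). The log2 fold change of Huh7 against HepG2, averaged over WT and SR, was -1.10 (standard error 0.37, 95% interval -1.97 to -0.23, unadjusted p = 0.0207 and adjusted p = 0.813 from limma over all genes tested). Across all genes, 4.90% were called in this comparison in either direction and 2.87% were lower in Huh7, so 1 of 10 genes is little above that background. At an adjusted p under 0.05, limma called 0 genes in this comparison, 744 had an unadjusted p under 0.05, and no other tool was run.

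The call rested on single libraries. It was lost without any of 4 of the 8, HepG2 WT replicate 1 (-1.04), HepG2 SR replicate 1 (-0.98), Huh7 WT replicate 1 (-0.94) or Huh7 SR replicate 1 (-0.74), whereas it was kept at -1.45 when Huh7 SR replicate 2 was removed. Among the 5 libraries that resemble one another, a setting chosen after the data were seen, Huh7 against HepG2 gave -0.69 (standard error 0.32) and the call was lost. The summed hepatocyte level split the libraries as NCOA4 did, since the 3 Huh7 libraries low in NCOA4 were also the 3 with the lowest sum. Within HepG2 the ends were reversed. WT replicate 1 had the highest NCOA4 and the lowest HepG2 sum (5525), and SR replicate 2 the lowest HepG2 NCOA4 and the highest sum (9350). Single markers did not all follow the split, and FGB was highest in Huh7 WT replicate 1 and Huh7 SR replicate 1 (380 and 327 FPKM). APOB and HNF4A in Huh7 SR replicate 1 (162 and 55.7 FPKM) exceeded HepG2 SR replicate 2 (82.4 and 51.0 FPKM). LYZ was 44.2 to 79.2 FPKM in the 3 Huh7 libraries low in NCOA4 and 224 to 1058 FPKM in the other 5. CD68 was 3.94 to 29.1 FPKM in those 3 libraries and 5.04 to 19.6 FPKM in the other 5. The part of these in the NCOA4 difference was not tested. In bulk RNA, fewer cells of a kind and less RNA per cell cannot be told apart.

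Within a cell line, NCOA4 did not separate SR from WT. The log2 fold change was -0.18 in HepG2 (standard error 0.52, 95% interval -1.41 to 1.05) and 0.56 in Huh7 (standard error 0.52, -0.67 to 1.79). The Huh7 value rested on SR replicate 2 and was -0.14 without it, and 1.26 without SR replicate 1, where NCOA4 was called (unadjusted p = 0.0375, adjusted p = 0.899 from limma). NCOA4 in HepG2 was 0.053 without SR replicate 2.

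Set against its cargo, NCOA4 fell into 2 ranges. FTH1 exceeded NCOA4 by 13.2 and 14.9 times in HepG2 WT, by 12.8 times in HepG2 SR replicate 1 and by 11.1 times in Huh7 SR replicate 2. In the other 4 libraries it exceeded NCOA4 by 36.1 to 45.0 times. Those were Huh7 WT replicates 1 and 2, Huh7 SR replicate 1 and HepG2 SR replicate 2, so each range held libraries of both lines. The 3 Huh7 libraries with the wide ratio had the lowest NCOA4 of all, and HepG2 SR replicate 2 had the highest FTH1.

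**Figure D2:**
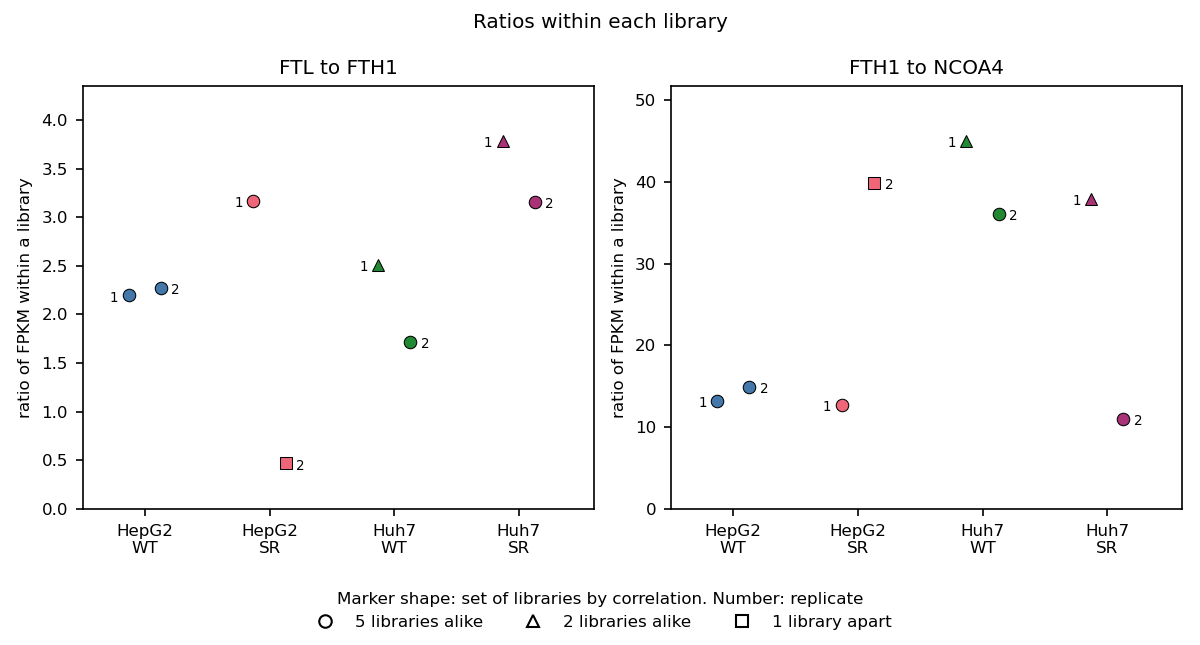
Ratio of FTL to FTH1 (left) and of FTH1 to NCOA4 (right) within each library, on linear axes from 0, by labelled group, with the replicate number beside each point and the set of libraries as marker shape. The FTL to FTH1 ratio is 0.471 in HepG2 SR replicate 2 and 1.72 to 3.78 elsewhere, and the FTH1 to NCOA4 ratio lies at 11.1 to 14.9 in 4 libraries and 36.1 to 45.0 in the other 4.

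The genes whose log2(FPKM + 1) most resembled NCOA4 over the 8 libraries were ENSG00000288886, for which no symbol was used here (Pearson's r = 0.990), FHOD1 (0.982) and APOA1 (0.981), an apolipoprotein secreted by hepatocytes. APOA1 stood at 1368, 1107, 1195 and 439 FPKM in HepG2 and at 17.7 and 158 FPKM in Huh7 WT and 60.7 and 1240 FPKM in Huh7 SR. The order of the libraries was thus nearly that of NCOA4, over a far wider range. For FTH1 the most similar genes were its pseudogene FTH1P2 (r = 0.974), TIMMDC1 (0.970) and MPV17L2 (0.970), each highest in HepG2 SR replicate 2. These r describe 8 libraries that fall into sets, they were picked as the highest of all genes tested, and they carry no test.

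SQSTM1, the p62 cargo receptor (chromosome 5, 179806398 to 179838078, plus strand), was lowest where FTH1 was highest. It had 133 and 97.9 FPKM in the HepG2 WT libraries, with 141 and 62.1 FPKM in SR. In Huh7 it was 304 and 172 FPKM in WT and 300 and 89.5 FPKM in SR. The 3 Huh7 libraries that were low in NCOA4 were the 3 highest in SQSTM1, and Huh7 SR replicate 2 lay below 3 of the 4 HepG2 libraries.

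For SQSTM1, the log2 fold change in SR against WT was -0.28 in HepG2 and -0.48 in Huh7, each with a standard error of 0.68. Both rested on replicate 2 of SR, without which they were 0.30 and 0.39. Between the cell lines, Huh7 against HepG2 was 0.90 (standard error 0.48, 95% interval -0.24 to 2.04), which did not pass the test. Without Huh7 SR replicate 2 it was 1.34 and was called (unadjusted p = 0.0177, adjusted p = 0.428 from limma), and among the 5 libraries that resemble one another it was 0.022. The ratio of SQSTM1 to NCOA4 lay between 0.761 and 1.25 in HepG2 and Huh7 SR replicate 2, and was 9.85, 3.55 and 8.58 in Huh7 WT replicates 1 and 2 and Huh7 SR replicate 1.

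ULK1, the kinase that starts autophagosome formation (chromosome 12, 131894651 to 131923167, plus strand), was highest in the same 3 Huh7 libraries, with a smaller span than SQSTM1. It had 10.8 and 9.85 FPKM in the HepG2 WT libraries, with 11.7 and 12.5 FPKM in SR, so that both SR libraries were above both WT libraries by a small margin. In Huh7 it was 19.5 and 13.8 FPKM in WT and 16.5 and 9.92 FPKM in SR, and the groups overlapped. The log2 fold change was 0.21 in HepG2 (standard error 0.37) and -0.33 in Huh7 (standard error 0.37), and the Huh7 value was 0.0090 without SR replicate 2.

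**Figure D3:**
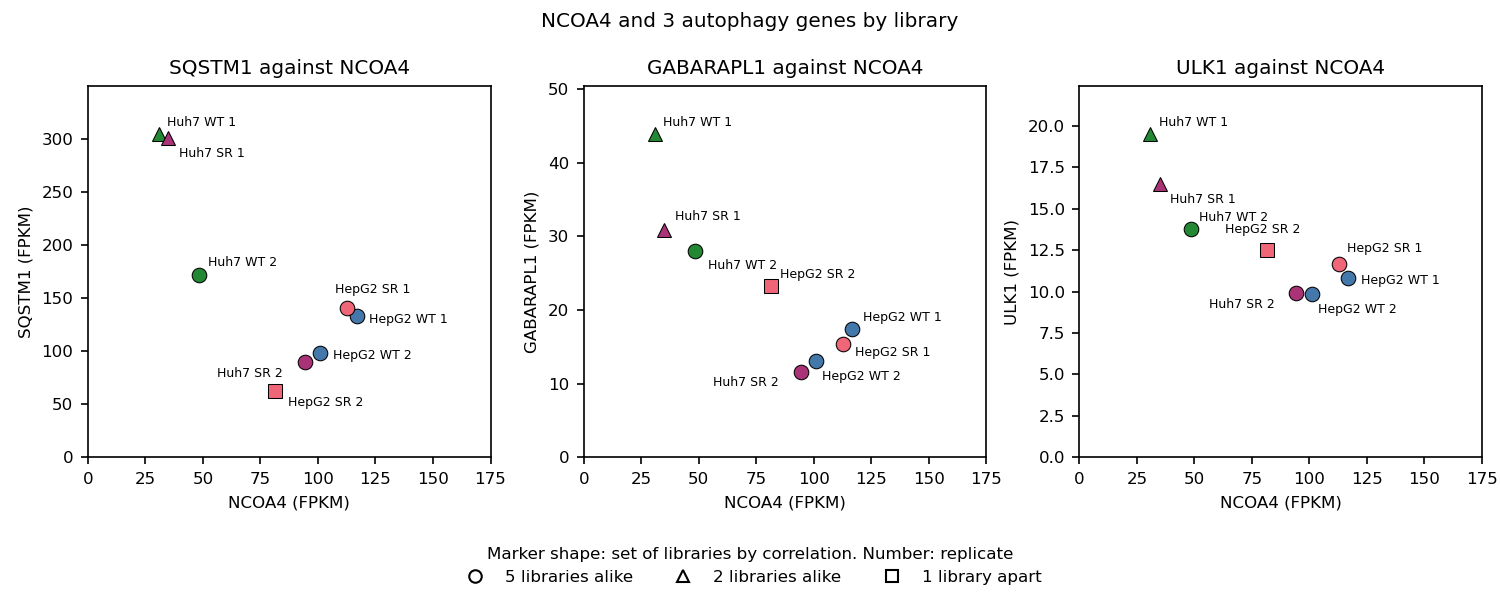
SQSTM1, GABARAPL1 and ULK1 (vertical axes, FPKM) against NCOA4 (horizontal axis, FPKM), with 1 point per library, colour by labelled group and marker shape by the set of libraries that correlate with one another. The 3 Huh7 libraries with NCOA4 at 30.9 to 48.4 FPKM hold the highest values of all 3 genes, and Huh7 SR replicate 2 lies within the HepG2 range for SQSTM1 and ULK1 and below it for GABARAPL1.

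ATG7, the E1-like enzyme that activates ATG12 and LC3 (chromosome 3, 11272309 to 11557665, plus strand), was the least abundant of the 10. It had 4.66 and 5.25 FPKM in the HepG2 WT libraries, with 3.84 and 10.2 FPKM in SR. In Huh7 it stood at 4.63 and 5.24 FPKM in WT and at 3.05 and 2.94 FPKM in SR. The 4 WT libraries were close together, 3 SR libraries lay below all of them, and HepG2 SR replicate 2 lay above all of them.

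For ATG7 the log2 fold change was 0.31 in HepG2 (standard error 0.46) and -0.57 in Huh7 (standard error 0.46, 95% interval -1.66 to 0.52). Without HepG2 SR replicate 2 the HepG2 value was -0.30. The difference of the SR effect between the lines, Huh7 minus HepG2, was -0.88 (95% interval -2.42 to 0.67) and was not called, but without HepG2 SR replicate 1 it was -1.48 and was called (unadjusted p = 0.0340, adjusted p = 0.788 from limma).

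ATG5, which acts with ATG12 and ATG16L1 to place LC3 on the membrane (chromosome 6, 106045423 to 106325791, minus strand), shared the high value in HepG2 SR replicate 2. It had 8.87 and 6.94 FPKM in the HepG2 WT libraries, with 8.26 and 17.8 FPKM in SR. In Huh7 it was 11.1 and 13.5 FPKM in WT and 12.97 and 6.25 FPKM in SR. The groups overlapped in both lines. Fitted log2 fold changes were 0.58 in HepG2 (standard error 0.49) and -0.40 in Huh7 (standard error 0.49), and was 0.065 in HepG2 without SR replicate 2 and was 0.077 in Huh7 without SR replicate 2.

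MAP1LC3B, the LC3 protein used as the standard marker of autophagosomes (chromosome 16, 87383995 to 87404779, plus strand), was set apart by 1 WT library. It had 38.8 and 34.0 FPKM in the HepG2 WT libraries, with 49.0 and 42.1 FPKM in SR, both SR libraries above both WT libraries. In Huh7 it stood at 50.1 and 151 FPKM in WT and at 29.8 and 50.5 FPKM in SR. Apart from Huh7 WT replicate 2, all libraries lay between 29.8 and 50.5 FPKM.

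For MAP1LC3B the log2 fold change was 0.31 in HepG2 (standard error 0.55) and -1.15 in Huh7 (standard error 0.55, 95% interval -2.45 to 0.16, unadjusted p = 0.0768 and adjusted p = 1 from limma). Without Huh7 WT replicate 2 the Huh7 value was -0.36, and without Huh7 WT replicate 1 it was -1.93 and was called (unadjusted p = 0.00591, adjusted p = 0.883 from limma). The direction in Huh7 thus kept its sign with any library left out, while its size ran from -1.93 to -0.36 with the WT library that was left out.

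GABARAPL1, of the GABARAP branch of the same family (chromosome 12, 10212458 to 10223130, plus strand), ran against NCOA4. It had 17.4 and 13.04 FPKM in the HepG2 WT libraries, with 15.4 and 23.2 FPKM in SR. In Huh7 it stood at 43.9 and 28.1 FPKM in WT and at 30.9 and 11.6 FPKM in SR. Again 3 Huh7 libraries were above all of HepG2, and Huh7 SR replicate 2 was the lowest of all 8. The log2 fold change of SR against WT was 0.31 in HepG2 and -0.85 in Huh7 (standard error 0.53 each), and in Huh7 it was -1.52 without SR replicate 1, where it was called (unadjusted p = 0.0241, adjusted p = 0.899 from limma), and -0.18 without SR replicate 2.

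GABARAPL2 (chromosome 16, 75566351 to 75577881, plus strand), which acts late in autophagosome growth and in Golgi transport, was the steadiest of the 10. It was 48.5 and 41.6 FPKM in HepG2 WT, 37.8 and 58.5 FPKM in HepG2 SR, 41.5 and 36.8 FPKM in Huh7 WT and 34.0 and 36.6 FPKM in Huh7 SR, so its highest library exceeded its lowest by 1.72 times. Its log2 fold change was 0.065 in HepG2, where the sign turned with scaling to a common sum (-0.040) and with quantile normalization (-0.022), and -0.14 in Huh7, each with a standard error of 0.33.

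Taking the 10 genes as a list, SR was not separated from WT. In HepG2 SR versus HepG2 WT, 0 of 10 were called, against 2.14% of all genes, and 7 had a positive log2 fold change, with a median of 0.26 beside -0.026 over all genes. In Huh7 SR versus Huh7 WT, 0 of 10 were called, against 1.87% of all genes, and 2 were positive, with a median of -0.40 beside -0.055. With the lines averaged, 0 of 10 were called, against 3.93%, and the median was -0.051 beside -0.046. The difference of the SR effect between the lines called 0 of 10, against 0.606%. None of the 10 had an unadjusted p under 0.05 in these 4 comparisons, and at an adjusted p under 0.05 limma called 0 genes of all tested in each, where 325, 283, 597 and 92 genes had an unadjusted p under 0.05. No other tool was run.

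The separation of the libraries themselves was near or below the background in HepG2 and over all 8 libraries. Within Huh7 it was above the background, on 3 genes and without a test. Both SR libraries lay above both WT libraries in HepG2 for MAP1LC3B and ULK1, 2 of 10 genes, where the groups did not overlap for 38.2% of all genes and SR was the higher group for 18.1%. In Huh7 they lay below for FTH1, ATG7 and GABARAPL2, 3 of 10, against 22.0% of all genes in either direction and 12.9% in this one. Over both lines, 0 of 10 genes had the 4 SR libraries apart from the 4 WT libraries, against 3.68%, and 0 of 10 had the 4 Huh7 libraries apart from the 4 HepG2 libraries, against 3.80%. In HepG2 the 95% intervals of all 10 genes reach past 0.5 in both directions. In Huh7 they do so for 8, and for MAP1LC3B and GABARAPL1 they reach past it only in the lower direction. With 2 libraries a group, changes of that size within these intervals were thus not excluded.

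**Figure D4:**
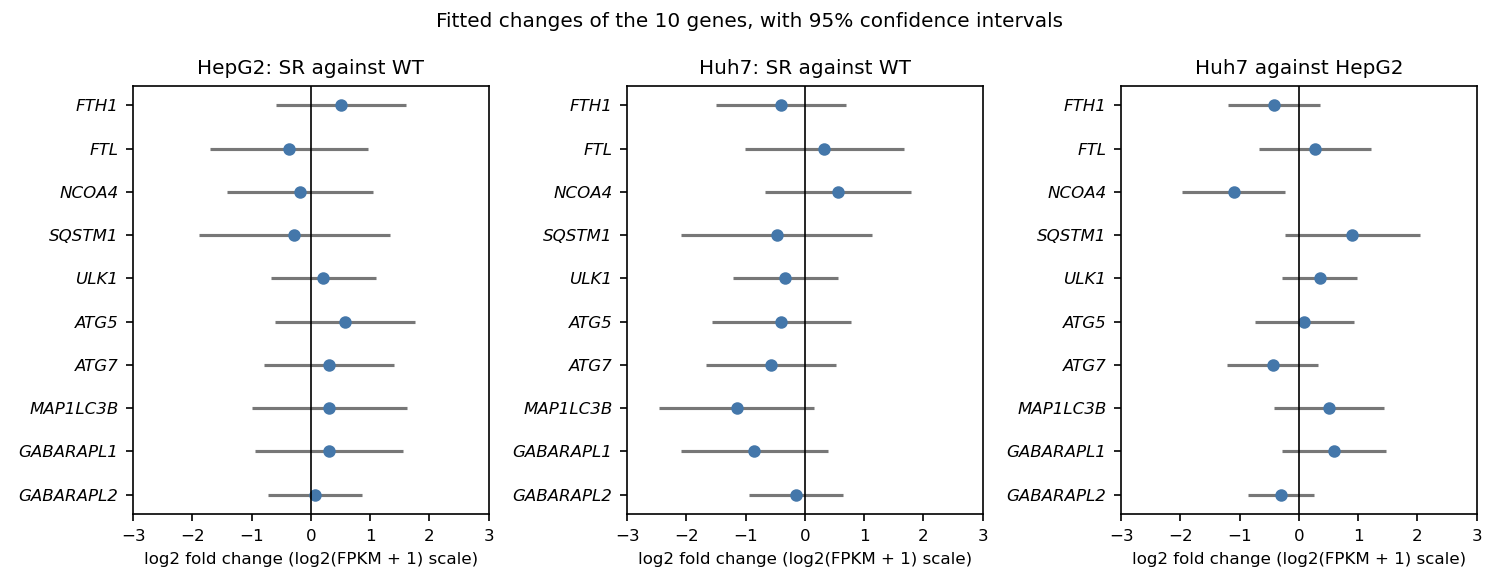
Log2 fold change of each gene on the log2(FPKM + 1) scale (horizontal axes), for SR against WT in HepG2 (left) and Huh7 (middle) and for Huh7 against HepG2 (right). Points are limma estimates over 8 libraries and lines are 95% confidence intervals, which span 0 for all genes but NCOA4 in the right panel.

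For comparison, AURKA, the mitotic kinase that the study follows, was called in both lines, from 10.2 and 14.1 FPKM in HepG2 WT to 92.8 and 50.5 FPKM in SR and from 19.7 and 16.8 FPKM in Huh7 WT to 129 and 59.6 FPKM in SR. By limma, its log2 fold change was 2.42 for HepG2 SR against WT (unadjusted p = 0.00178, adjusted p = 0.956). For Huh7 SR against WT, limma gave 2.21 (unadjusted p = 0.00288). Like every other gene tested, AURKA did not reach an adjusted p under 0.05 in either line. Each SR library was above all WT libraries, and the call was kept in both lines with each library left out in turn.

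Wider lists around these genes were counted next, in 82 genes of which 77 were tested. In HepG2 SR versus HepG2 WT, 0 of 77 were called, 32 had a positive and 45 a negative log2 fold change, and the median was -0.12. In Huh7 SR versus Huh7 WT, 0 rose and 2 of 77 fell, OPTN and WIPI1, against 0.923% of all genes called lower, with 20 positive, 57 negative and a median of -0.25. After scaling all libraries to the same total, the median of all genes was -0.13 in HepG2 and -0.14 in Huh7, against -0.026 and -0.055 as deposited, so a small negative median depends on the scaling.

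Step by step, the HepG2 and Huh7 medians were 0.26 and -0.85 for the ATG8 family, to which LC3 and GABARAP belong (5 genes tested), -0.17 and -0.38 for initiation (9 genes), -0.20 and -0.34 for nucleation (13 genes) and 0.23 and -0.39 for conjugation (10 genes). They were -0.20 and -0.067 for cargo receptors (11 genes), -0.36 and -0.26 for fusion and the lysosome (18 genes) and 0.041 and 0.036 for regulators of ferritin (12 genes). In both lines ferritin regulators were evenly split, with 6 positive and 6 negative.

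In the same Huh7 comparison all 10 hepatocyte markers had a positive log2 fold change in Huh7 SR (median 1.51), of which HNF4A was called. Both SR libraries lay above both WT libraries for only 3 of the 10. In SR replicate 1, TTR (0.150 FPKM) lay below both WT libraries (0.371 and 1.12 FPKM). ALB in that library (42.3 FPKM) lay below WT replicate 2 (604 FPKM). Of 6 leukocyte markers 2 were tested. LYZ was called at 2.51, whereas CD68 had the opposite sign at -1.12 and was not called. The part of the hepatocyte and leukocyte markers in the OPTN and WIPI1 values was not tested.

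OPTN, optineurin, a receptor that brings ubiquitin-coated mitochondria and bacteria to autophagosomes, stood at 58.2 and 56.4 FPKM in Huh7 WT and at 26.0 and 18.4 FPKM in Huh7 SR. The log2 fold change was -1.35 (standard error 0.38, unadjusted p = 0.00987 and adjusted p = 1 from limma), and the call was lost without Huh7 SR replicate 2, at -1.11. HepG2 WT held 29.3 and 30.7 FPKM of OPTN against 20.1 and 36.3 FPKM in HepG2 SR, and the log2 fold change there was -0.14.

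WIPI1, which binds the lipid made at sites of autophagosome formation, stood at 36.5 and 54.3 FPKM in Huh7 WT and at 20.1 and 16.1 FPKM in Huh7 SR. Its log2 fold change was -1.26 (standard error 0.46, unadjusted p = 0.0305 and adjusted p = 1 from limma). The call was lost without Huh7 WT replicate 2 (-0.98), Huh7 SR replicate 1 (-1.41) or Huh7 SR replicate 2 (-1.11). In HepG2 its log2 fold change was -0.20. Whether either gene differs between the lines was tested by the difference of the SR effect, which was -1.20 for OPTN (unadjusted p = 0.0616, adjusted p = 0.9998 from limma) and -1.06 for WIPI1 (unadjusted p = 0.150, adjusted p = 0.9998 from limma).

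**Figure D5:**
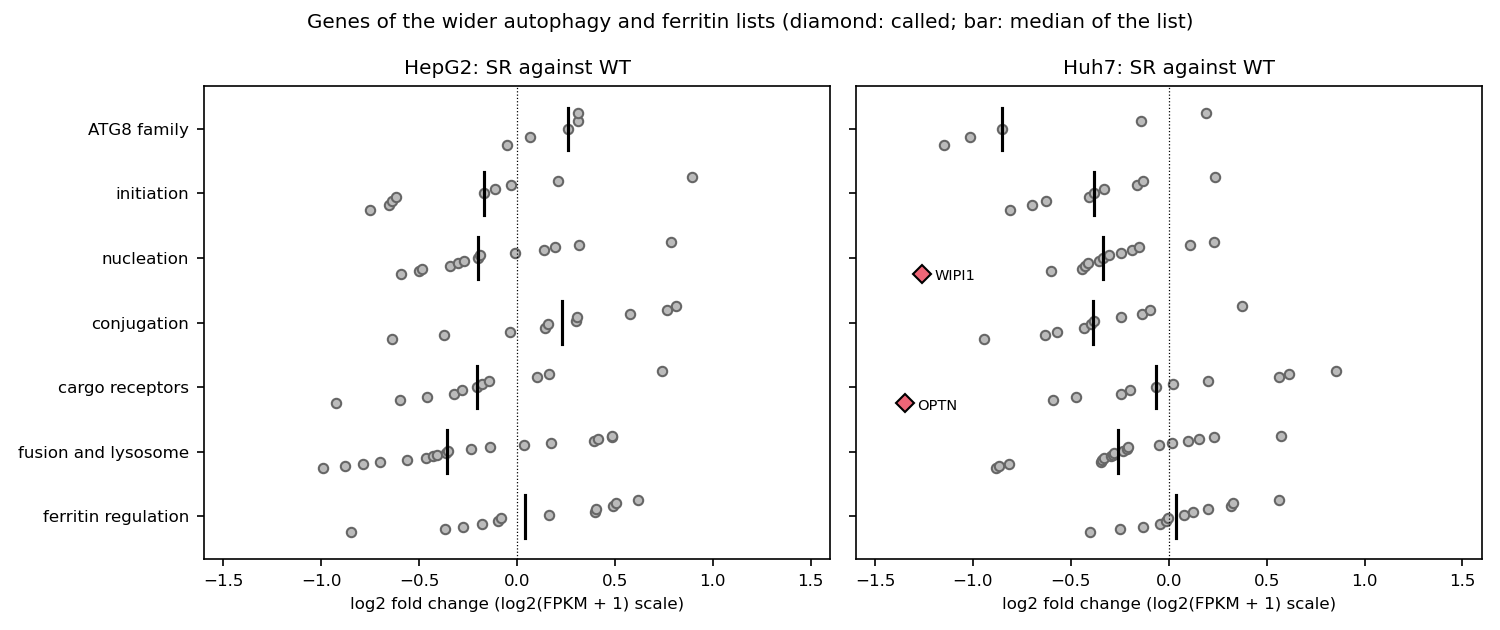
Log2 fold change of SR against WT (horizontal axes) for each tested gene of 7 lists (rows) in HepG2 (left) and Huh7 (right). Circles are genes not called, diamonds are genes called and bars are list medians. OPTN and WIPI1 in Huh7 are the called genes.

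Several of the 10 genes share sequence or position with other features, which limits their values. The library kit did not mark strand, so reads of genes that overlap on opposite strands cannot be told apart. BEST1 shares 1267 exonic bases with FTH1, SQSTM1 shares 1582 with MRNIP, ATG7 shares 1596 with VGLL4, and MAP1LC3B shares 150 with FBXO31. BEST1, known as a channel of the retina, had 0.262 and 8.93 FPKM in the HepG2 WT libraries, with 14.7 and 37.0 FPKM in SR, and was called there (log2 fold change 2.79, unadjusted p = 0.0462, adjusted p = 0.956 from limma). It was 1.30 and no longer called without HepG2 WT replicate 1, and the call was also lost without HepG2 SR replicate 1, HepG2 SR replicate 2, Huh7 WT replicate 1 or Huh7 WT replicate 2, and with a pseudocount of 0.1, no filter, scaling to a common sum or each line fitted alone.

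Near copies stood at a small share of the level of their parents, and not all of them followed the parent in each library. FTH1P2 and FTH1P8, processed pseudogenes, ran from 6.89 to 23.2 FPKM and from 6.16 to 22.3 FPKM, each lowest in Huh7 SR replicate 2 and highest in HepG2 SR replicate 2 as FTH1 was, and 40.8% and 28.2% of their 50-base stretches also occur in an FTH1 transcript. FTLP3, with 31.7% of its stretches in FTL, ran from 4.21 FPKM in HepG2 SR replicate 2, where FTL was lowest too, to 12.6 FPKM. MAP1LC3B2, with 43.4% of its stretches in MAP1LC3B, ran from 2.02 to 2.90 FPKM in 6 libraries other than HepG2 WT replicate 1 (3.29) and Huh7 WT replicate 2 (9.70), and its highest library was that of MAP1LC3B. How the counting divided shared reads is not given in the sources used here, so values of FTH1, FTL and MAP1LC3B are uncertain by what was assigned to the copies. GABARAPL3 was at or near 0 in all libraries.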

How the data were processed

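Polyadenylated RNA from 8 libraries was analysed. The authors deposited FPKM, 1 value per gene and library, without pooling. Per the submitters' processing notes, fastp 0.20.0 and GRCh38 were used. The aligner, counter and annotation are not given in the sources used here. Samples were grouped by labels alone. Symbols were paired with 99.1% of identifiers, and positions and sequences came from GENCODE release 29.

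FPKM are not counts, so log2(FPKM + 1) was tested with limma 3.58.1 in R 4.3.3 (eBayes with trend), in a model of 4 group means with 4 residual degrees of freedom. A gene was kept where 2 or more libraries had an FPKM no lower than 1, and p-values were Benjamini-Hochberg adjusted over 15173 genes. Fold changes on this scale understate changes of low genes. Calls followed the study's thresholds, p under 0.05 before adjustment and a log2 fold change of 0.5 or more, or below -0.5.

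The genes, lists, tests and alternatives were chosen with earlier results of these data known. Besides the 10 genes, text named called genes of the wider lists in either line (at most the 2 with the largest change per list and comparison), AURKA, features that overlap or copy a member, and the 3 genes most like NCOA4 and FTH1. Alternatives changed the pseudocount, filter, scaling, spread, threshold, replicate block and libraries. The fit was tested on simulated data. Figures were drawn with matplotlib 3.10.9.

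Taking genes with a single transcript length, low FPKM values lay within 0.02 of a whole read for 5.97% to 13.2% of values, against 4.0% by chance, so read counts were not recovered, depth is unknown and no counting intervals are given.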

Additional observations from a re-analysis of the deposited data

Results flagged for a closer look

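In 60 sets (10 genes and both ratios, each over 4 WT, 4 SR, 4 HepG2, 4 Huh7 and all 8 libraries), a library stood far from the others, by Dixon's 95% criterion, in 8. Chance gives about 1 in 20, and the sets share libraries. HepG2 SR replicate 2 accounted for 6 of them. Its FTH1 of 3251 FPKM was the highest of the HepG2 libraries (next 1545) and of all 8 (next 1747). Its ATG7 of 10.2 FPKM was the highest of the SR libraries (next 3.84) and of all 8 (next 5.25). Its GABARAPL2 of 58.5 FPKM was the highest of the SR libraries (next 37.8), and its FTH1 to NCOA4 ratio of 39.9 was the highest of the HepG2 libraries (next 14.9). This is also the library that correlated with neither set of the others.

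The remaining 2 concerned MAP1LC3B in Huh7 WT replicate 2, at 151 FPKM, the highest of the WT libraries (next 50.1) and of all 8 (next 50.5). That library belonged to the 5 that resemble one another, and MAP1LC3B2 was highest there too, at 9.70 FPKM.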

How the results depend on the processing

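In HepG2 SR versus HepG2 WT, 0 of the 10 genes were called under every alternative run, while the calls over all genes ran from 57 (without HepG2 SR replicate 2) to 1749 (without HepG2 SR replicate 1). Leaving out each library in turn gave 0 to 2 called genes in Huh7 SR versus Huh7 WT, 0 to 1 with the lines averaged, 0 to 3 in Huh7 versus HepG2 and 0 to 2 for the difference of the SR effect. Calls were gained in Huh7 without WT replicate 1 (MAP1LC3B) or SR replicate 1 (NCOA4 and GABARAPL1), between the lines without Huh7 SR replicate 2 (SQSTM1 and GABARAPL1), HepG2 SR replicate 1 (ATG7) or Huh7 WT replicate 1 (MAP1LC3B), with the lines averaged without Huh7 WT replicate 1 (MAP1LC3B), and for the difference without HepG2 SR replicate 1 (FTH1 and ATG7), Huh7 WT replicate 1 (MAP1LC3B) or Huh7 SR replicate 1 (GABARAPL1). Calls over all genes rose too, from 283 to 818 and 568 in Huh7 without WT replicate 1 and SR replicate 1, from 744 to 1735 between the lines without Huh7 SR replicate 2, from 596 to 1015 averaged without Huh7 WT replicate 1, and from 92 to 945, 339 and 465 for the difference. Between the lines without Huh7 WT replicate 1, calls over all genes fell instead. Among the 5 libraries that resemble one another, added after the data were seen, 0 of the 10 genes were called in Huh7 versus HepG2, where 1 was called over all 8. Over all genes, 1023 were called in that setting, beside 744 over all 8 libraries. With the expression profile as a term, 0 of the 10 genes were called in SR versus WT averaged over the lines. Over all genes, 1245 were called with that term, beside 596 without it.

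With the replicate block, 1 gene was called in Huh7 SR versus Huh7 WT (MAP1LC3B, unadjusted p = 0.0154, adjusted p = 0.921 from limma), 2 in Huh7 versus HepG2 (NCOA4, adjusted p = 0.806 from limma, and SQSTM1 at 0.90, adjusted p = 0.806 from limma) and 1 for the difference of the SR effect (MAP1LC3B), while 1392, 669, 780 and 535 of all genes were called in HepG2, in Huh7, between the lines and for the difference. No fold change moves with the block in this balanced design. The replicate numbers are not stated to mark a shared batch, so libraries were not treated as paired. Deviations of same-numbered libraries correlated at 0.125 between HepG2 WT and SR, at 0.796 between Huh7 WT and SR and at -0.562 between HepG2 SR and Huh7 SR. Huh7 libraries of the same number were thus alike, and the main fit leaves that likeness in the spread of the Huh7 groups.

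Leaving out a library turned the sign of these log2 fold changes of SR against WT, given as the lowest and highest value. In HepG2 they were NCOA4 (-0.41 to 0.053), FTH1 (-0.084 to 1.09), FTL (-1.16 to 0.42), SQSTM1 (-0.87 to 0.30), GABARAPL2 (-0.24 to 0.37), ATG7 (-0.30 to 0.91), OPTN (-0.56 to 0.27) and WIPI1 (-0.73 to 0.33). In Huh7 they were NCOA4 (-0.14 to 1.26), SQSTM1 (-1.34 to 0.39), ATG5 (-0.87 to 0.077) and ULK1 (-0.67 to 0.0090). Huh7 WT and SR libraries of the same number correlated at 0.965 and 0.914, and the Huh7 WT replicates at 0.754. Leaving out a Huh7 library thus compares unlike libraries. By replicate number, NCOA4 was higher in SR in both (30.9 to 35.0 and 48.4 to 94.3 FPKM). SQSTM1 (304 to 300 and 172 to 89.5 FPKM) and ULK1 (19.5 to 16.5 and 13.8 to 9.92 FPKM) were lower in both. ATG5 went from 11.1 to 12.97 and from 13.5 to 6.25 FPKM. GABARAPL2 in HepG2 was -0.040 rescaled to a common sum and -0.022 with quantile normalization. The cause was not tested. With 2 libraries a group and unknown depth, changes within the intervals given were not excluded.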

Other observations

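Beyond the comparisons above, other genes of the wider lists passed the call thresholds when lines or groups were averaged. They were chosen after their values were seen, and each call had an adjusted p of at least 0.813 from limma. With SR compared with WT over both lines, ATG13, a partner of ULK1, fell by 0.72 on the log2 scale, ATG16L1, a partner of ATG5, fell by 0.79, OPTN fell by 0.75, and BNIP3, a mitophagy receptor induced by hypoxia, rose by 0.80. Called genes were 4 of 77, beside 3.93% of all genes. BNIP3 had 44.0 and 54.7 FPKM in the HepG2 WT libraries, 76.1 and 89.5 FPKM in HepG2 SR, 42.3 and 57.8 FPKM in Huh7 WT and 58.5 and 139 FPKM in Huh7 SR, so each SR library was above all WT libraries. ATG16L1 had 8.88 and 3.97 FPKM in the HepG2 WT libraries, 3.20 and 3.81 FPKM in HepG2 SR, 6.31 and 8.35 FPKM in Huh7 WT and 3.39 and 3.20 FPKM in Huh7 SR, so each SR library was below all WT libraries. ATG13 was apart in that direction too. Of the 77 genes, 1 had all SR libraries above all WT libraries and 2 had them below, beside 3.68% of all genes in either direction. Leaving out each of the 8 libraries in turn, the BNIP3 call was lost in 7 and its value ran from 0.49 to 1.11. The calls of ATG13 (-0.96 to -0.47), ATG16L1 (-1.04 to -0.55) and OPTN (-0.95 to -0.54) were lost in 6 each. The BNIP3 call was also lost with scaling to a common sum, with quantile normalization and without the trend, the ATG16L1 call with quantile normalization, and the ATG13 call without the trend. Among the 5 libraries that resemble one another, ATG16L1 and ATG13 were no longer called, and at a log2 threshold of 1 none of the 4 was.

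Between the lines, CTSL, a lysosomal cysteine protease, was higher in Huh7 than in HepG2 by 1.04 on the log2 scale, whereas CTSD, a lysosomal aspartic protease, differed by -0.66 and FBXL5, the iron-sensing subunit of a ubiquitin ligase that degrades an iron regulatory protein, differed by -0.63. FBXL5 stood at 20.3, 22.2, 14.3 and 21.1 FPKM in the HepG2 libraries and at 13.8, 12.6, 12.5 and 9.57 FPKM in the Huh7 libraries, which did not overlap. Of the 77 genes, 1 had all Huh7 libraries above all HepG2 libraries and 1 had them below, beside 3.80% of all genes in either direction. With each of the 8 libraries left out in turn, the calls of CTSL (0.73 to 1.36) and CTSD (-0.81 to -0.51) were lost in 5 and that of FBXL5 (-0.77 to -0.50) in 6. CTSD was also lost with quantile normalization, CTSD and FBXL5 with the replicate block and at a log2 threshold of 1, and CTSL and CTSD among the 5 libraries that resemble one another. With NCOA4, called genes between the lines were 4 of 77, beside 4.90% of all genes.

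MAP1LC3A, another LC3 protein, named after its values were seen, stood at 9.36 FPKM in HepG2 SR replicate 2 and at no more than 0.105 FPKM in any other library.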
